A study of Homo sapiens with 9 samples.

Results

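The PTBP family is a set of 3 human genes, PTBP1, PTBP2 and PTBP3, that encode polypyrimidine tract-binding proteins. Each of the 3 symbols was carried by 1 feature of a table of 46846 features, and these 3 rows are described here in all 9 libraries. The libraries hold polyadenylated RNA of the human breast cancer line MDA-MB-231, labelled triple negative, so every group shares 1 line and its genotype. The groups were DMSO, the solvent control (labelled 12 h, 3 libraries), indisulam at 3.3 µM for 12 h (3 libraries) and pladienolide B at 10 nM for 6 h (3 libraries). Indisulam is a sulfonamide that brings the splicing factor RBM39 to a ubiquitin ligase for degradation, and pladienolide B binds the SF3b complex, which recognises the branch site of introns. Pladienolide B was labelled with a shorter time than DMSO, so drug and time cannot be told apart in any comparison that includes it.

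Polypyrimidine tract-binding proteins have RNA recognition motifs that bind sequences rich in U and C, often near an alternative exon, and in most known cases they keep that exon out of the mRNA. PTBP1 is found in nearly all cell types, PTBP2 is best known from developing neurons, and PTBP3 was first described in blood cells. The family is known for holding itself in check: PTBP1 protein represses an exon in its own transcript and the matching exon in that of PTBP2, the shortened transcripts shift frame, and they are degraded by nonsense-mediated decay (NMD), the pathway that removes mRNAs with an early stop codon.

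That exon is shown first because it is the best known control point of PTBP1 and PTBP2 level. Each gene has an exon of 34 bases with 1 base left over after whole codons, so leaving it out changes the reading frame. In the GENCODE 29 annotation of hg38 it is exon 11 of 15 in PTBP1 (chr19:807869-807902, plus strand), exon 10 of 14 in PTBP2 (chr1:96806419-96806452, plus strand) and exon 11 of 15 in PTBP3 (chr9:112231380-112231413, minus strand), each counted in a transcript with the most exons. The sequences below run from 5′ to 3′ on the strand of the gene, taken from the annotated transcripts, and capitals mark the bases that are identical in all 3 genes.
PTBP1 exon 11: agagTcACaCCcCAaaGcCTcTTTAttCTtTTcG
PTBP2 exon 10: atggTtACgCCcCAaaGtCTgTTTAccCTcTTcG
PTBP3 exon 11: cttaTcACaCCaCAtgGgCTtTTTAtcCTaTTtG
All 3 exons were identical at 19 of 34 positions. PTBP1 and PTBP2 were identical at 25 positions, PTBP1 and PTBP3 at 22 and PTBP2 and PTBP3 at 21. The exon was spliced in 6 annotated transcripts of PTBP1 and left out of 5, of which 2 were of the NMD type. For PTBP2 it was spliced in 6 transcripts and left out of 3, all 3 of a noncoding type, and for PTBP3 it was spliced in 5 and left out of 0. The deposited values are sums over a whole gene, so they hold no measure of how often the exon was used in these cells.

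The libraries held between 59312100 and 83910831 reads. After the authors' scaling the summed signal with pladienolide B was 1.39 times that of DMSO. Comparisons with pladienolide B therefore depend on the scaling: with the same total in every library the median log2 change of all features against DMSO moved by -0.47, with TMM scaling by -0.11 and with quantile normalisation by 0.11. Among markers of the line VIM, the intermediate filament of mesenchymal cells, stood at 127792 in DMSO and the basal keratin KRT5 at 0. The hormone receptor genes ESR1 and PGR stood at 1.23 and 0.559, below the value of 3 reads (2.48 to 3.87, the most that a count of 0 allows). ERBB2, whose protein and not its RNA defines the label, stood at 5682. EPCAM and GATA3, also listed as low in this line, stood at 973 and 392 in DMSO and were thus clearly detected.

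PTBP1 was by far the highest of the family, PTBP3 came next and PTBP2 was the lowest. Both drugs were followed by the same 3 directions relative to DMSO as deposited: PTBP1 and PTBP2 were higher and PTBP3 was lower. PTBP3 fell further with pladienolide B than with indisulam, and for PTBP1 and PTBP2 the difference between the drugs did not pass the test as deposited. Values here are normalised read counts, a fold is a ratio of group means, and a log2 fold change is given on the log2(value + 1) scale with its standard error after ±. The test was limma across 16846 features with Benjamini-Hochberg adjustment, and a feature counted as changed at an adjusted p under 0.05. All 3 genes changed with indisulam, 2 higher and 1 lower, where 26.9% of all features tested changed (14.5% higher and 12.4% lower). All 3 also changed with pladienolide B, again 2 higher and 1 lower, against a background of 69.8% (34.3% higher and 35.5% lower). A count of 3 genes is too small to be read against these shares, and both comparisons use the same DMSO libraries, so their shared directions are not independent. Lack of overlap between groups, given below, is a description only, because its share over all features is not given.

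**Figure D1:**
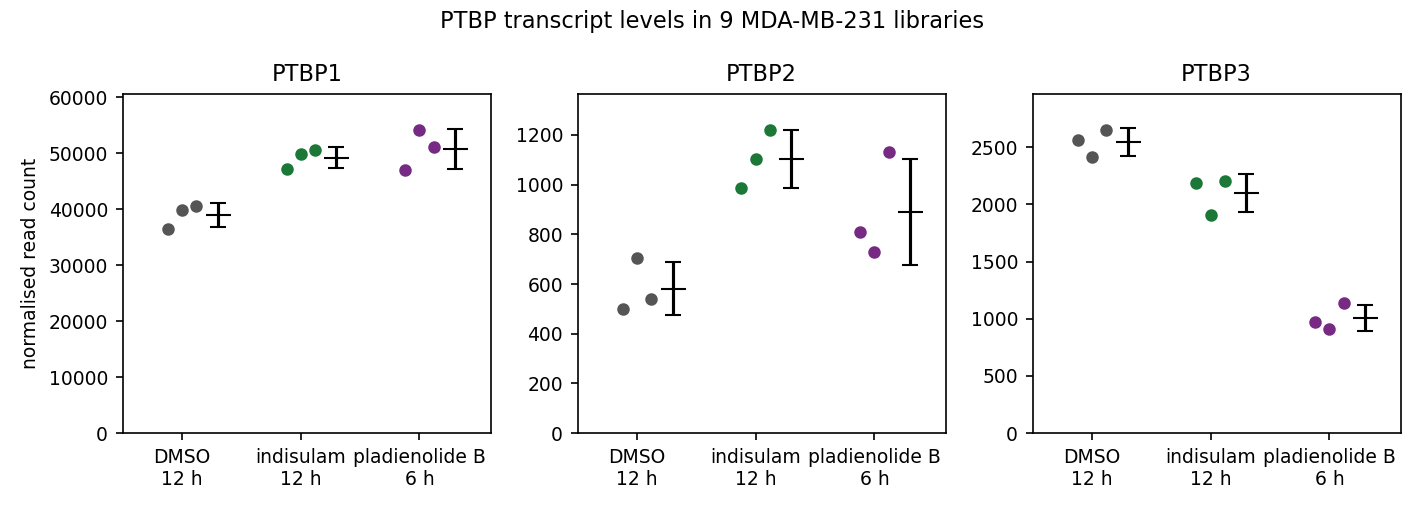
Normalised read counts (vertical axes, starting at 0) of PTBP1, PTBP2 and PTBP3 in the 3 DMSO, 3 indisulam and 3 pladienolide B libraries. Each dot is 1 library in replicate order and the bar beside it is the mean with its SD; PTBP3 lies between 911 and 1134 in the pladienolide B libraries, below all others.

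PTBP1, the broadly expressed repressor (GSHG0020964, hg38 chromosome 19, 797410 to 812327, plus strand), was modestly higher with either drug. Its values were 36511, 39784 and 40571 in the DMSO libraries. They were 47085, 49811 and 50624 with indisulam. They were 46963, 54143 and 51148 with pladienolide B. Every treated library lay above every DMSO library, and the libraries of the drugs lay among each other. With indisulam the mean rose from 38955 ± 2153 to 49173 ± 1854 (SD, n = 3), a fold of 1.26 (log2 0.34 ± 0.06, limma adjusted p = 0.00149). With pladienolide B it was 50751 ± 3606, a fold of 1.30 (0.38 ± 0.06, limma adjusted p = 9.26e-05). That second rise holds for the deposited scaling and for TMM (0.27), but the value was -0.092 with the same total per library (adjusted p = 0.155) and -0.26 with quantile normalisation (adjusted p = 0.00115). Relative to the median of all features its log2 change was 0.39 as deposited, with TMM and under an equal total, and -0.31 after quantile normalisation. The rise with indisulam was between 0.28 and 0.37 in all 20 alternative settings and passed the test in each.

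PTBP2, the paralog best known from neurons (GSHG0000832, chromosome 1, 96721665 to 96823739, plus strand), had the largest relative rise of the family with indisulam. The DMSO libraries gave 501, 705 and 540.0. Indisulam gave 987, 1103 and 1220.5, and pladienolide B gave 809.7, 727 and 1131. All treated libraries were above all DMSO libraries, although the lowest pladienolide B library exceeded the highest DMSO library only slightly. The mean was 582 ± 108 in DMSO and 1104 ± 117 with indisulam (SD, n = 3), a fold of 1.90 (log2 0.93 ± 0.16, limma adjusted p = 0.000937). This rise passed in all 20 alternative settings, between 0.83 and 1.08. With pladienolide B the mean was 889.5 ± 214, a fold of 1.53 (0.60 ± 0.16, limma adjusted p = 0.00441), which was 0.13 with the same total per library (adjusted p = 0.521) and did not pass, and 0.95 after quantile normalisation (adjusted p = 0.000108). Because each value is measured in bulk RNA, more cells with PTBP2 RNA and more PTBP2 RNA per cell cannot be told apart.

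Few markers of neurons were called in either direction. Their median log2 change as deposited was -0.37 with indisulam and -0.29 with pladienolide B, against 0.05 and -0.01 for all features tested. Of 12 neuron markers, 11 were matched and 5 were high enough to test. With indisulam 0 of these 5 were higher and 1 was lower, TUBB3, a neuronal tubulin that many cancer lines also carry (5154 ± 236 to 3879 ± 250, log2 -0.41, limma adjusted p = 0.00136). With pladienolide B 1 was higher and 1 was lower: TUBB3 was higher by 0.43 as deposited but not with the same total per library (-0.04), and SYT1, a synaptic vesicle protein, fell by 1.11. The shares called, 20.0% with indisulam and 40.0% with pladienolide B, lie below the 26.9% and 69.8% of all features, and 5 genes are too few to read more from them. The neuronal genes STMN2, NEFL and RBFOX3 were at 0 in every library.

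PTBP3, the paralog first described in blood cells (GSHG0045033, chromosome 9, 112217715 to 112333664, minus strand), was the only member that was lower with the drugs as deposited. Its values were 2565, 2410.4 and 2650.2 in DMSO. They were 2185, 1907 and 2201 with indisulam. They were 975, 911 and 1134 with pladienolide B. The 3 groups did not overlap, with DMSO highest, indisulam next and pladienolide B lowest. From DMSO (2542 ± 122) to pladienolide B (1007 ± 115, SD, n = 3) the level was 0.396-fold (log2 -1.34 ± 0.09, limma adjusted p = 1.84e-08). This fall passed under all 20 alternatives and ranged from -1.81 to -1.12, scaling methods included. With indisulam the mean was 2097 ± 165, 0.825-fold (-0.28 ± 0.09, limma adjusted p = 0.0378). That smaller fall did not pass with no filter on low values (adjusted p = 0.0556) or when any 1 of the 6 libraries compared was left out (adjusted p from 0.0576 without indisulam replicate 3 to 0.158 without indisulam replicate 2).

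**Figure D2:**
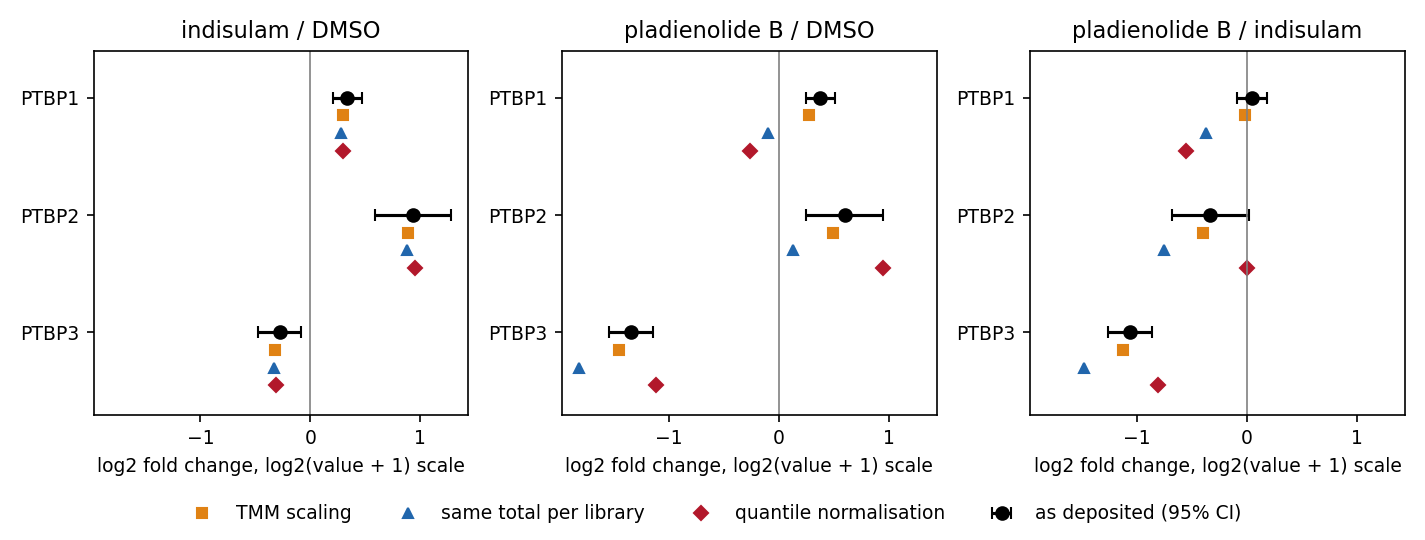
Log2 fold changes on the log2(value + 1) scale (horizontal axes) for each PTBP gene in the 3 comparisons, with the deposited scaling as a black dot with its 95% confidence interval and 3 other scalings as coloured symbols. For indisulam the 4 symbols of a gene lie close together, while for pladienolide B those of PTBP1 fall on both sides of 0, from 0.38 to -0.26, and those of PTBP3 stay below -1.

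The drugs were also compared with each other, at their different times. PTBP3 was 0.480-fold with pladienolide B relative to indisulam (log2 -1.06 ± 0.09, limma adjusted p = 1.86e-07) and was lower in all 20 alternatives, where 70.3% of all features changed and 35.6% were lower. PTBP1 did not pass (0.04 ± 0.06, 95% confidence interval -0.09 to 0.18, limma adjusted p = 0.547), but its change was -0.37 with the same total and -0.56 after quantile normalisation, and both of these passed. PTBP2 did not pass either (-0.33 ± 0.16, interval -0.68 to 0.02, limma adjusted p = 0.0817). It passed without pladienolide B replicate 3, its highest pladienolide B library (-0.52, adjusted p = 0.00567), and with TMM (-0.40, adjusted p = 0.0381) or the same total (-0.75, adjusted p = 0.00176), while quantile normalisation gave -0.00.

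A ratio between genes within a library is free of any single factor per library. As deposited, the ratios show the family's balance moving away from PTBP3. Quantile normalisation is not such a factor and would change them. With it the log2 changes from DMSO to pladienolide B were -0.26 for PTBP1, 0.95 for PTBP2 and -1.12 for PTBP3. The log2 ratio of PTBP3 to PTBP1 averaged -3.94 ± 0.11 in DMSO, -4.55 ± 0.14 in the indisulam libraries and -5.66 ± 0.21 in those of pladienolide B (n = 3 libraries each, SD). The 3 groups were fully apart. Relative to PTBP1, PTBP3 was thus 0.652-fold with indisulam and 0.303-fold with pladienolide B. PTBP2 moved up against PTBP3: the log2 ratio averaged -2.14 ± 0.32 in DMSO, -0.93 ± 0.19 in the indisulam libraries and -0.20 ± 0.17 in those of pladienolide B, again without overlap between groups. In folds this was 2.32 for indisulam and 3.85 for pladienolide B. For each of these differences the exact permutation test, two-sided, gave 0.1, its lowest possible p with groups of 3, and 0.129 after adjustment over 9 ratio comparisons.

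The ratio of PTBP2 to PTBP1 behaved less evenly. It was -6.08 ± 0.23 in DMSO and -5.48 ± 0.10 with indisulam, 1.51-fold higher and without overlap (exact permutation p = 0.1). With pladienolide B it was -5.86 ± 0.36, the widest spread of the 9 group values, and its libraries overlapped both DMSO (exact permutation p = 0.6) and indisulam (exact permutation p = 0.2). The drugs were therefore not fully apart in PTBP2 relative to PTBP1, with a log2 difference of -0.38 and a standard error of 0.22. After quantile normalisation the log2 changes from indisulam to pladienolide B were -0.56 for PTBP1 and -0.00 for PTBP2. The direction of this difference thus depends on the processing.

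**Figure D3:**
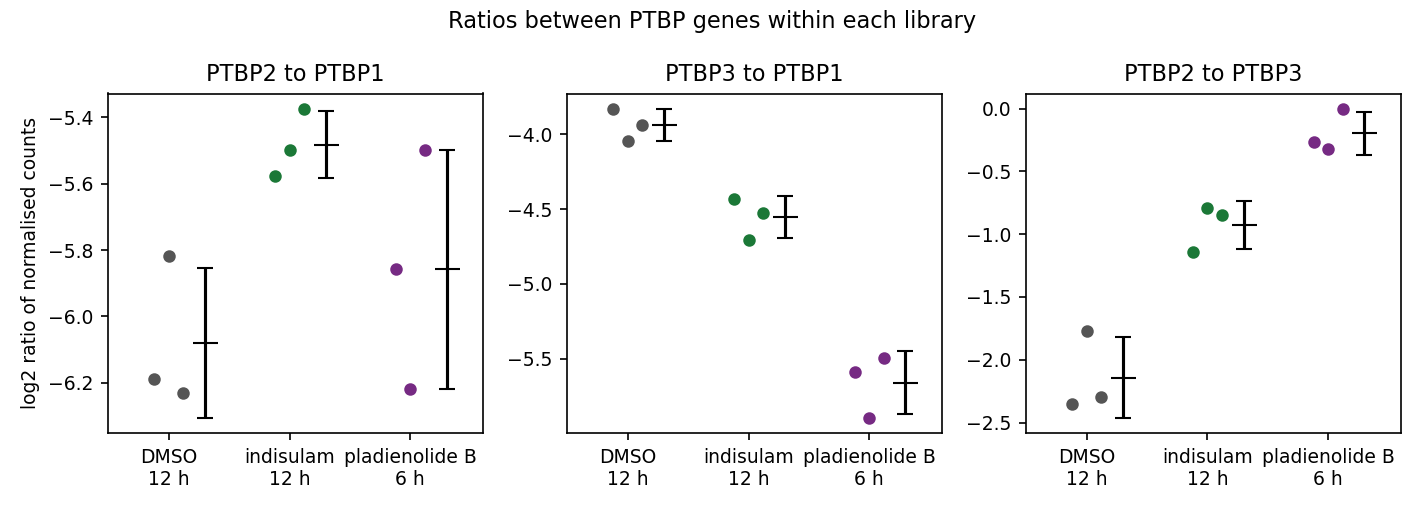
Log2 ratios of normalised counts between PTBP genes within each library (vertical axes, log2 scale), 1 dot per library with the mean and SD beside each group. PTBP3 to PTBP1 falls and PTBP2 to PTBP3 rises across DMSO, indisulam and pladienolide B without overlap, from means of -3.94 to -5.66 and of -2.14 to -0.20.

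To compare levels between the genes, counts were divided by the length of all annotated exons of a gene (6.883 kb for PTBP1, 12.937 kb for PTBP2 and 8.239 kb for PTBP3). On this scale the DMSO level was 5660 ± 313 per kb for PTBP1, 309 ± 14.8 per kb for PTBP3 and 45.0 ± 8.36 per kb for PTBP2 (SD, n = 3). PTBP1 was 18.4 times PTBP3 and 128 times PTBP2. The order PTBP1, PTBP3, PTBP2 held in all 9 libraries. The step between PTBP3 and PTBP2 shrank from 7.04-fold in DMSO to 3.01-fold with indisulam and 1.81-fold with pladienolide B, where PTBP3 stood at 122 ± 14.0 per kb and PTBP2 at 68.8 ± 16.5 per kb.

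PTBP1 supplied 94.1 ± 0.273% of the family's level per kb in DMSO, 95.5 ± 0.306% after indisulam and 97.5 ± 0.434% after pladienolide B (n = 3 each, SD). The share of PTBP3 was 5.14 ± 0.366%, 3.41 ± 0.317% and 1.62 ± 0.219% in the same order. PTBP2 supplied 0.747 ± 0.123%, 1.14 ± 0.0804% and 0.912 ± 0.222%. The family's summed level per kb was 6013 ± 317 in DMSO, 7484 ± 274 after indisulam and 7564 ± 521 after pladienolide B on the deposited scale. Since PTBP1 makes up nearly all of this sum, the sum follows PTBP1 and shares its dependence on scaling.

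Several short features of the table lie inside the PTBP genes. A pair of features inside a PTBP1 intron has the coordinates of the mature arms of MIR4745, a microRNA gene on the same strand. Their RefSeq sequences (GRCh38.p14, chr19:804941-804963 and chr19:804977-804999, plus strand) are shown because both stretches had reads in all libraries of 1 group only, with the seed, bases 2 to 8, in capitals.
hsa-miR-4745-5p: uGAGUGGGgcucccgggacggcg
hsa-miR-4745-3p: uGGCCCGGcgacgucucacgguc
Both arms had 0 reads in all DMSO and all indisulam libraries. With pladienolide B the first had 2, 2 and 3 reads and the second 3, 3 and 4, which makes 7 and 10 in all. These counts are close to the 3 reads that a count of 0 allows and were not tested. The libraries were made from mRNA and do not measure mature microRNA, and 1 annotated retained-intron transcript of PTBP1 also covers this stretch.

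PTBP2 holds a feature with many more reads, GSHG0000833 (chromosome 1, 96794959 to 96796290, 1332 bases), which lies within an intron and meets no annotated exon. It was singled out after its values were seen. The DMSO libraries gave 36.0, 62.7 and 57.1, indisulam gave 102, 81.1 and 99.3, and pladienolide B gave 323, 261 and 591. Each drug's libraries were above those of DMSO, and those of pladienolide B were above all others. With pladienolide B the level was 7.54-fold that of DMSO (51.9 ± 14.1 to 392 ± 176, SD, n = 3; log2 2.84 ± 0.29, limma adjusted p = 8.38e-07), and the change passed in all alternatives, between 2.37 and 3.09. With indisulam it was 1.81-fold (94.0 ± 11.2; 0.88 ± 0.29, limma adjusted p = 0.0372), with adjusted p from 0.0124 to 0.144 over the alternatives, so this call does not hold in all of them.

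Set against the count of its host gene, the intronic feature stood apart in the pladienolide B libraries. It amounted to 7.19%, 8.90% and 10.6% of the PTBP2 count in DMSO and to 10.3%, 7.35% and 8.13% with indisulam, with overlapping libraries (log2 difference -0.04, exact permutation p = 0.8). With pladienolide B it amounted to 39.9%, 35.8% and 52.2%, which is 4.80-fold higher without overlap (log2 difference 2.26, exact permutation p = 0.1, the smallest possible). The difference between the drugs was 2.31 on the log2 scale, also without overlap. Unnamed features inside introns were often higher across the genome: of 678 tested, 45.6% (309) were higher and 110 lower with pladienolide B, and 20.2% (137) were higher and 11 lower with indisulam. Over all features tested the shares called higher were 34.3% and 14.5%. Their median log2 change with pladienolide B was 0.63, and their median excess over the host gene was 1.05. The PTBP2 feature lay above 85.3% of them in its change and, with an excess of 2.24, above 70.2% of them in its excess over the host.

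**Figure D4:**
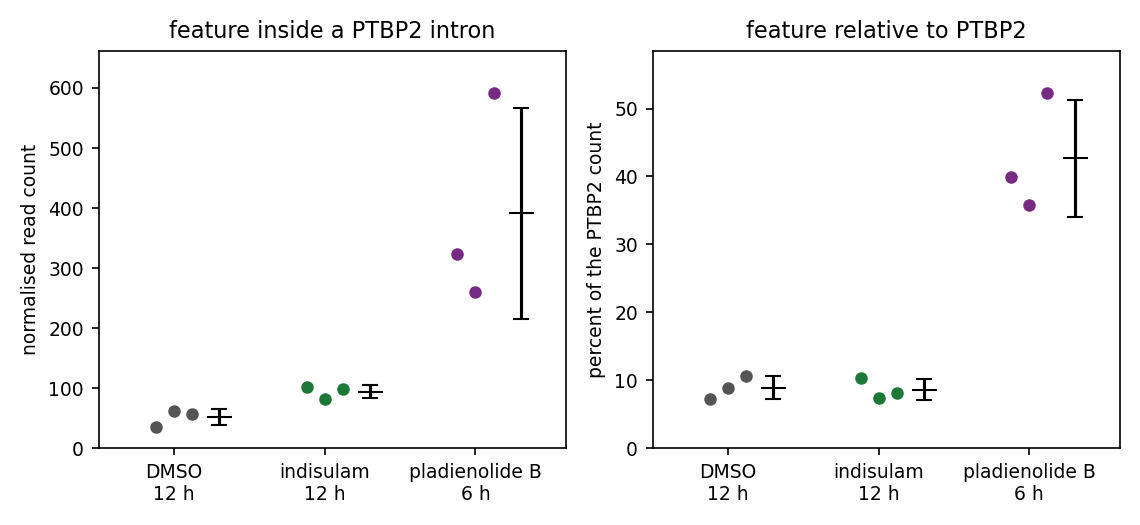
Normalised read count of the feature inside a PTBP2 intron (left) and the same count as a percent of the PTBP2 count (right), 1 dot per library with the mean and SD, vertical axes starting at 0. The pladienolide B libraries lie between 35.8% and 52.2% of PTBP2, and the DMSO and indisulam libraries overlap at 7.19% to 10.6%.

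PTBP3 also holds an intronic feature (GSHG0045034, chromosome 9, 112229202 to 112230315), but it was too low to test. It had 3, 6 and 4 reads in DMSO, 0 in the 3 indisulam libraries and 0, 0 and 6 with pladienolide B. The DMSO and indisulam libraries did not overlap, but all but 2 of the 9 counts were at or under 4 reads. PTBP3 further overlaps the annotated pseudogenes RN7SL57P, RN7SL430P and HSPE1P28 on its own strand and RNA5SP295 on the other, and the strand setting of the counting is not given in the sources used here.

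PTB proteins work with other RNA-binding proteins, and lists of these partners and of known target genes were looked at by the number of members that changed. The median log2 change of all features tested was 0.05 with indisulam and -0.01 with pladienolide B, and 26.9% and 69.8% of them changed, the background against which each list's share is given. Of 15 genes listed as partners or corepressors of PTB, 12 were tested, and MATR3, HNRNPL and HNRNPH1 matched no feature. With indisulam 2 of the 12 rose and 2 fell (33.3% changed, list median 0.07). HNRNPLL, a PTBP-related repressor, rose by 0.47 and HNRNPH2, a binder of G runs, by 0.35, whereas HNRNPU fell by 0.23 and HNRNPA1, an exon silencer, fell by 0.18 on the log2 scale. With pladienolide B 7 rose and 1 fell as deposited (66.7% changed, median 0.32), against 1 and 6 with the same total, and 2 and 5 after quantile normalisation. HNRNPA1 was higher by 1.15 and stayed higher under each scaling (0.44 to 1.15). The member that fell was RAVER1, a corepressor that binds PTBP1 directly (5376 ± 92.4 to 3555 ± 135, SD, n = 3; log2 -0.60 ± 0.06, limma adjusted p = 6.93e-07). It was lower under each scaling, from -1.07 to -0.60. The shares that changed were near those of all features.

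Of 16 genes for other proteins that bind pyrimidine-rich RNA, 4 rose and 0 fell with indisulam (25.0% changed, median 0.10), with 1 falling under TMM, 3 with the same total and 2 after quantile normalisation. TIA1, which binds U-rich stretches behind 5′ splice sites, rose most of the named ones (836 ± 81.6 to 1650 ± 74.0, SD, n = 3; log2 0.98 ± 0.10, limma adjusted p = 1.68e-05). U2AF2, which binds the polypyrimidine tract itself at 3′ splice sites, rose by 0.40, and HNRNPC, which binds U tracts, rose by 0.33. With pladienolide B 8 rose and 4 fell as deposited (75.0% changed, median 0.21) and 4 rose and 10 fell with the same total. HNRNPC (1.02) and the C-binding PCBP1 (1.15) were higher under every scaling. CELF1, which binds GU-rich RNA, fell by 1.06, FUBP1 by 0.58 and TIAL1, the paralog of TIA1, by 0.43, and all 3 were lower under every scaling. Here too the shares that changed were near the background.

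Of 22 splicing regulators listed as restricted to certain tissues, 12 were high enough in this line to test. With indisulam 3 rose, RBM24 by 0.54, MBNL2 by 0.50 and RBPMS by 0.32, and 1 fell, RBM4 by 0.20 (33.3% changed, list median -0.14). RBPMS did not pass with TMM or the same total. With pladienolide B 1 rose and 5 fell as deposited (6 of 12 changed, median -0.37), and 0 rose and 10 fell with the same total. SRRM3, an activator of microexons, fell from 283 ± 17.0 to 111 ± 36.7 (SD, n = 3; log2 -1.39), and QKI, a muscle and glial regulator, fell by 1.02. ESRP2, an epithelial regulator, fell by 1.65, but it overlaps NFATC3, which has a higher mean, and their reads may be shared. RBM4, which competes with PTB for binding sites, was the 1 that rose (0.32), with -0.15 under the same total.

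Genes with an exon that PTB is known to control were followed at the level of the whole gene, which does not show the exon. With indisulam 6 of 21 rose and 3 fell (42.9% changed, median 0.08). CASP2 rose by 0.64 and TPM2 by 0.42, of which TPM2 did not pass with the same total. TPM1, a classical PTB target, fell by 0.37, ACTN1 by 0.17 and FLNA by 0.16. These 3 encode actin-binding proteins, as do TPM2 and CTTN, which rose (CTTN by 0.19, chosen after its value was seen). With pladienolide B 11 rose and 8 fell as deposited (90.5% changed, median 0.32), and 4 rose and 13 fell with the same total. SRC, whose neuronal N1 exon is repressed by PTB, fell from 1666 ± 126 to 413 ± 17.7 (SD, n = 3; log2 -2.01 ± 0.08, limma adjusted p = 1.86e-10). MEF2A fell by 1.28 and ATP2B1 by 0.88. PKM, whose mutually exclusive exons PTB helps to choose between, was higher by 0.80 and CLTB, a clathrin light chain, by 0.91, and both were higher under each scaling.

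Like PTBP1 and PTBP2, many splicing factor genes carry exons or introns whose use sends the transcript to NMD. Of 22 such genes 12 rose and 2 fell with indisulam (63.6% changed, median 0.24), and 11 rose and 3 fell under each of TMM, the same total and quantile normalisation. RBM39, whose protein is the one removed by indisulam, rose most among them (15036 ± 392 to 37646 ± 950.1, SD, n = 3; log2 1.32, limma adjusted p = 1.86e-08), and HNRNPDL rose by 0.62. The SR protein gene SRSF6 fell by 0.55. With pladienolide B 16 rose and 3 fell as deposited (86.4% changed, median 0.59), against 10 and 9 with the same total, and 11 and 6 after quantile normalisation. HNRNPDL (1.62), SRSF3 (1.53) and SRSF2 (1.49) were higher under each scaling, and SRSF6 (-0.61), SRSF5 (-0.47) and TIAL1 (-0.43) were lower under each.

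**Figure D5:**
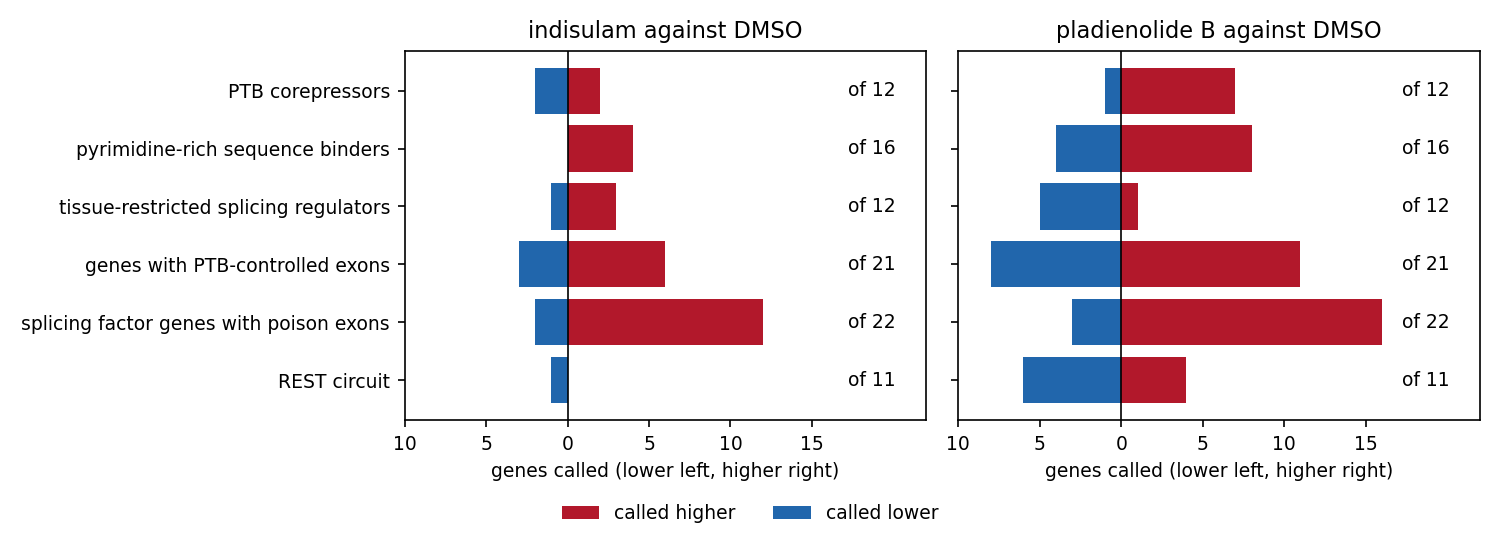
Number of genes called higher (red, right of 0) and lower (blue, left of 0) at an adjusted p under 0.05 in 6 gene lists, with the number tested at the right, for indisulam (left panel) and pladienolide B (right panel) against DMSO with the deposited scaling. The splicing factor genes with poison exons have the most higher calls, 12 of 22 with indisulam and 16 of 22 with pladienolide B; the latter became 10 with the same total per library.

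The features most like each PTBP gene were found among 11526 with a symbol and a mean of at least 100, by the root mean square difference of their log2 values from the DMSO mean over the 9 libraries. For PTBP1 the nearest were CIBAR1 (0.0434), MAPKAP1, EMC3, TMEM251 and MFSD14A (0.0654), where the median over all candidates was 0.460. For PTBP2 they were CCDC150 (0.180), PSG4, AUH, PRPF39 and SNHG1 (0.211), with a median of 0.762. For PTBP3 they were PANK3 (0.0738), TANGO6, POLR3B, SKP2 and NFATC2 (0.0892), with a median of 0.818. The log2 changes of the 5 genes near PTBP3 were -0.34 to -0.19 with indisulam and -1.33 to -1.26 with pladienolide B. The family members were not each other's nearest: from PTBP1, PTBP2 ranked 5192 and PTBP3 10228, and from PTBP2, PTBP1 ranked 296. These distances are a description without a test, and the libraries they share set the DMSO baseline of every gene.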

How the data were processed

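Each deposited value is a signal: the reads of a feature, divided by the authors by 1 DESeq2 size factor per library, as the table's name and the submitters' processing notes state. The notes also name STAR 2.7.5a and hg38. How reads were assigned to features is not given in the sources used here. Divided by the value of 1 read, 100% of values in each library came out whole (tolerance 0.01). Values were tested with limma 3.58.1 under R 4.3.3 on log2(value + 1), 1 mean per group, all 9 libraries, moderated variances with a trend, for features with a mean of at least 10. It was tested on simulated data. The labels do not tell separate cultures from repeat libraries of 1 culture, and the p-values cover the spread between libraries only. No pair agreed within sampling noise. Ratios were tested by exact two-sided permutation. Lengths and exons came from GENCODE 29. The PTBP genes and 10 gene lists were chosen with earlier results of these data known. Of 152 list memberships 143 matched 1 feature. Named from a list are, per drug and direction, up to 3 changed members with the largest change and a mean of at least 100. Some genes named by this rule are not reported here.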

Additional observations from a re-analysis of the deposited data

How the results depend on the processing

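PTBP1 with pladienolide B against DMSO became -0.092 with an equal library total and -0.26 after quantile normalisation. Against indisulam these were -0.37 and -0.56. PTBP2 with pladienolide B fell to 0.13 with the same total (adjusted p = 0.521) and was 0.95 after quantile normalisation. Between the drugs PTBP2 passed with TMM (-0.40) and the same total (-0.75). PTBP3 with indisulam kept its value of -0.28 with no filter on low values but did not pass (adjusted p = 0.0556). Leaving out 1 library moved it between -0.32 and -0.21, and moved PTBP2 between the drugs between -0.52 and -0.20. PTBP1's share of the family became 95.8%, 96.7% and 98.2% (DMSO, indisulam, pladienolide B) per kb of the longest transcript and 92.6%, 93.9% and 96.4% with no division by length. Features called higher made up 53.8% of calls for indisulam as deposited, 42.4% with TMM and 40.3% with the same total, 49.1% and 23.1% for pladienolide B as deposited and with the same total, and 49.3% and 26.2% between the drugs. Replicate numbers are shared between groups. Same-numbered libraries of different groups correlated from 0.00266 to 0.128 in their deviations from the group means, and differently numbered ones from -0.124 to 0.0450. Every same-numbered correlation was positive and most differently numbered ones were negative, but not each library correlated best with its own number. Deviations within a group of 3 sum to 0, so low correlations do not exclude a pairing. Whether the numbers mark pairs was not tested, and the main fit did not use them. In the fit with a replicate block PTBP2 between the drugs kept -0.33 and passed (limma adjusted p = 0.0376), and no other PTBP call changed. The limma adjusted p of PTBP3 with indisulam went from 0.0378 to 0.00326. With the block 6287 features were called with indisulam in place of 4532. The causes of these changes were not tested.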

Other observations

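REST, a repressor of neuronal genes, and its partners form a circuit in which small phosphatases and a neuronal microRNA meet PTB proteins. Of 11 genes of this circuit, 0 were higher and 1 was lower with indisulam (9.09% called against 26.9% of all features, median log2 change -0.02): CTDSP1, a phosphatase that works with REST, fell from 1730 ± 164 to 1248 ± 75.0 (SD, n = 3; -0.47 ± 0.10, limma adjusted p = 0.00377). With pladienolide B 4 were higher and 6 lower as deposited (90.9% called against 69.8%, median -0.49), and 1 higher and 9 lower with the same total per library. CTDSP1 stood at 499 ± 49.7 (-1.79), RCOR1, a REST corepressor, fell from 1323 ± 38.3 to 392 ± 54.3 (-1.76), and SIN3A, another, fell by 0.89. These 3 were lower under each scaling. REST itself went from 833 ± 78.0 to 1184 ± 105 (0.51 ± 0.10, limma adjusted p = 0.000517), with 0.03 under the same total. HDAC1, a deacetylase of both corepressor complexes, was higher by 0.71 and under each scaling.

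Markers of the line and of other cells were read as a check. Of 8 genes typical of MDA-MB-231, 1 was higher and 2 lower with indisulam, and 7 higher and 1 lower with pladienolide B (4 and 3 with the same total, 0 and 4 after quantile normalisation). Of 8 genes listed as low in this line, 4 were tested, of which 1 was higher with indisulam and 3 with pladienolide B as deposited. The latter became 2 higher and 1 lower with TMM or the same total. GATA3 was higher with both drugs (0.38 and 1.96). The shares called in these lists were 37.5% and 25.0% with indisulam, against 26.9% of all features. With pladienolide B they were 100% and 75.0%, against 69.8%. Among 5 tested leukocyte markers 1 was lower with indisulam, CSF1R (269 ± 17.9 to 129 ± 23.2; -1.07, limma adjusted p = 0.000601), and with pladienolide B 1 was higher and 0 lower as deposited, against 0 higher and 1 lower with the same total. The share called was 20.0% with each drug. Lists this small cannot be read against the shares of all features.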
